A study of Homo sapiens with 6 samples.

Results

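The genes described here are 10 inflammatory genes that the transcription factor NF-kB is known to drive: the chemokines CXCL1, CXCL2, CXCL3, CXCL5 and CCL20, the cytokines IL6, LIF and IL1A, and the NF-kB inhibitors NFKBIA and TNFAIP3. They were chosen by name as rows of the deposited comparison, and all 10 were found among its 19830 genes. RNA was measured in PANC-1, an established human pancreatic ductal adenocarcinoma line. Cells of the treated group received 25 nM of siRNA against SOX9, a transcription factor of pancreatic duct and progenitor cells, and the comparison group received 25 nM of control siRNA. Both groups were transfected with Lipofectamine and harvested after 48 hours, with 2 libraries per group. The wells were pooled at harvest, and the labels do not say whether libraries sharing an siRNA came from separate cultures, so a p-value here reflects the variation among these libraries only, and that variation may be technical. SOX9 ChIP-seq was not analysed here.

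NF-kB dimers are held in the cytoplasm by IkB proteins, of which NFKBIA (IkB-alpha) is the best known. Signals from TNF, IL-1 or Toll-like receptors activate the IKK kinases, IkB is degraded, and the freed dimers enter the nucleus. There they switch on chemokines and cytokines, and also NFKBIA and TNFAIP3 (A20), which shut the pathway down again. In pancreatic cancer the CXC chemokines with an ELR motif (the residues Glu, Leu and Arg before the CXC cysteines) are known for drawing in neutrophils through the receptor CXCR2. CCL20 acts on CCR6, and IL6 and LIF signal through IL6ST (gp130), JAK1 and STAT3.

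The promoters show what these genes have in common in sequence. RefSeq promoter windows (GRCh38.p14) were matched by symbol for 9 of the 10 genes, all but LIF, and the 250 bases before each annotated gene start were searched on both strands. A strict NF-kB motif, GGANTTTCC, was present in 7 of these 9 promoters and in 1.47% of all 27305 promoters of the same length. A loose motif, GGNNNTTCC, of which every strict match is also a match, was present in 8 of 9 and in 17.1% of all. These genes are textbook NF-kB targets and the motif was written with known sites in mind, so the counts describe the genes and test nothing. Of the SOX motifs searched, ACAATG matched 1 of 9 promoters, that of CXCL5, beside 9.45% of all promoters, and AACAAT matched 1 of 9, that of IL1A, beside 9.19% of all. A match says only that the letters are present, and the absence of a match says nothing about the factor.

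The last 100 bases before the gene start are shown for the 7 genes with a strict match, 5′ to 3′ on the gene's own strand, because they place the motif in each promoter. Capitals mark matches to the loose motif on either strand, the strict matches among them.
CXCL1: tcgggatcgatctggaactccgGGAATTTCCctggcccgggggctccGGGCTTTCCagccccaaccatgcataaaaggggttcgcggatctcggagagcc
CXCL2: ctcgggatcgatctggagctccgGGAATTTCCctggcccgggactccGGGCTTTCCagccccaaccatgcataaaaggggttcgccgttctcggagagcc
CXCL3: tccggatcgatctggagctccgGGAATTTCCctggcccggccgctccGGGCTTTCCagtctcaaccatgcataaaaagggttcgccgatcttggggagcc
CXCL5: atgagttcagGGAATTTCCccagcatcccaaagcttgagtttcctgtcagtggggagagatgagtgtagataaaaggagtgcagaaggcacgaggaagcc
IL6: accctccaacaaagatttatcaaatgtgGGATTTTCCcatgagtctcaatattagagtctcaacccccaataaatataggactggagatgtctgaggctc
NFKBIA: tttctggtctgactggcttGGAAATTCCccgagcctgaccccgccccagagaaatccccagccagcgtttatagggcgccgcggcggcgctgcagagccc
TNFAIP3: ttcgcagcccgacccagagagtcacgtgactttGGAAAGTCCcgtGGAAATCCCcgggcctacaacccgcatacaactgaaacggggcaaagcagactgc
In GRCh38.p14 these stretches lie at CXCL1, chr4:73869293-73869392 (plus strand), with CXCL2 at chr4:74099196-74099295 (minus strand), CXCL3 at chr4:74038690-74038789 (minus strand) and CXCL5 at chr4:73998678-73998777 (minus strand). The IL6 stretch lies at chr7:22727100-22727199 (plus strand), that of NFKBIA at chr14:35404750-35404849 (minus strand) and that of TNFAIP3 at chr6:137867159-137867258 (plus strand).

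The motif sat at nearly the same place in the CXC genes. GGAATTTCC began 78 bases before the start of CXCL1 and of CXCL3, 77 before CXCL2 and 90 before CXCL5. Over the 100 bases shown, CXCL1 and CXCL2 were 94.1% identical, CXCL1 and CXCL3 90.0%, and CXCL1 and CXCL5 49.0%, in global alignments that count gaps as differences. IL6 carried GGATTTTCC at 72 bases before its start. NFKBIA had strict matches at 81 and 242 bases, the latter outside the stretch shown, and TNFAIP3 had GGAAAGTCC, a strict match on the other strand, at 67 bases. CCL20 had a loose match alone, at 79 bases, and IL1A had neither NF-kB motif.

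**Figure D1:**
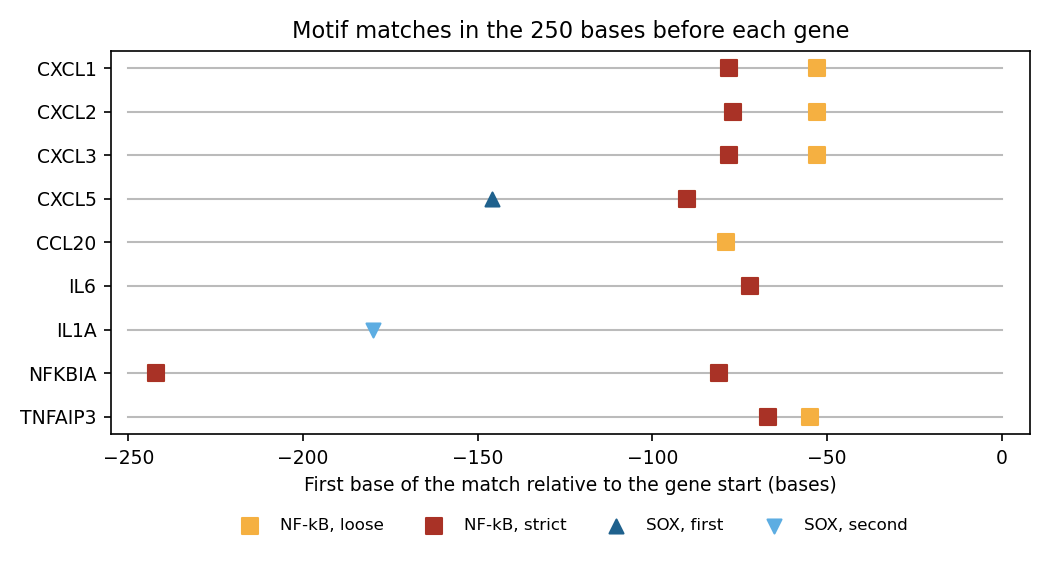
Motif matches in the 250 bases before the annotated start of 9 genes. The x axis is the position of the first base of each match relative to the gene start, in bases, red squares are the strict NF-kB motif, orange squares loose matches that are not strict, and triangles the SOX motifs. In CXCL1, CXCL2 and CXCL3 the squares lie at 77 or 78 and at 53 bases before the start.

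The genes differed widely in how many reads they had. The table gives a mean normalized count over the 4 libraries, which is the read count after scaling for library depth. It is not divided by transcript length, so levels of different genes are not compared here beyond saying how many reads stood behind each value. An adjusted p-value was given by the authors for 14063 genes, called tested here. The 5767 others had mean counts of 21.93 or less. Of the 10 genes 4 were tested, CXCL1, LIF, NFKBIA and TNFAIP3, with mean counts from 366.8 to 3935 according to the authors' deposited table. The other 6 had mean counts from 1.23 for IL6 to 16.0 for CXCL2 according to the authors' deposited table, which is 4.93 to 64.2 normalized reads in all 4 libraries together.

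No value per library is in the table, so the points behind each mean and whether the groups overlap cannot be shown. An implied mean per group was computed instead, from the mean count and the fold change with 2 libraries in each group. The headers do not name the numerator, so fold changes are read as SOX9 siRNA over control siRNA because SOX9 was negative, with a log2 ratio of -0.84 (SE 0.26) and an adjusted p of 0.0643 according to the authors' deposited table. SOX9 is therefore no check of the labels, and every direction here would turn with that reading. Intervals are 95% Wald intervals from the deposited standard errors. Log2 ratio is used for the log2 fold change of a gene. A gene was called when the authors' DESeq2 adjusted p was under 0.05.

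Of the 10 genes 1 was called, CXCL1, and it fell. Among all tested genes 1.81% were called, 0.939% lower and 0.868% higher. With 4 tested genes, the share of calls among the 10 is too small a count to set beside that background. An unadjusted p under 0.05 was found for 2 of the 10, CXCL1 and NFKBIA, on opposite sides of 0. Both are among the 4 tested, again too few to set beside the 11.1% of all tested genes. The log2 fold changes were negative for 6 genes and positive for 4, with a median of -0.16 over all 10 and -0.03 over the 4 tested. The median of all tested genes was -0.02.

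**Figure D2:**
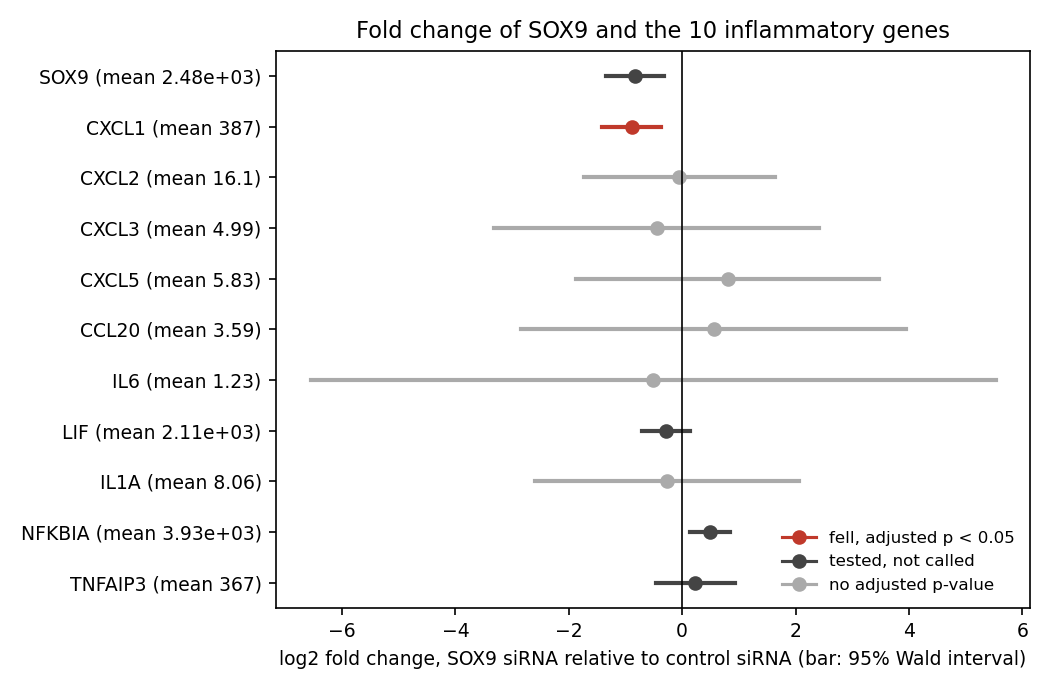
Log2 fold change of SOX9 and the 10 genes, SOX9 siRNA relative to control siRNA. Points are the authors' estimates, bars 95% Wald intervals, and the mean normalized count stands beside each name. The interval of CXCL1 lies below 0 and that of NFKBIA above it, while the grey bars of the 6 genes without an adjusted p-value all cross 0 and span from 3.38 log2 units for CXCL2 to 12.1 for IL6.

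CXCL1, a neutrophil-attracting chemokine, was lower in cells with SOX9 siRNA. Its mean normalized count was 387.2 according to the authors' deposited table, and the implied group means were 503.4 in control and 271.0 in SOX9 siRNA libraries. That is 53.8% of the control level by the authors' deposited table, with an interval from 37.4% to 77.4%. The log2 ratio of CXCL1 was -0.89 with a standard error of 0.27 and a DESeq2 adjusted p of 0.0472 according to the authors' deposited table. In bulk RNA, fewer cells that express a gene and less RNA per cell cannot be told apart. By p-value CXCL1 stood at rank 247 among the 254 called genes, so it was close to the threshold. At its standard error a log2 change of 0.89 in size was the least that could pass. The call was lost when p-values were adjusted over every gene of the table (adjusted p 0.0663), when fold changes were centred on the median gene (0.0538) and in a test against a 1.5-fold change (1.00).

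The chemokines most like CXCL1 in promoter sequence had too few reads for a comparison. CXCL2, its nearest relative here, had a mean normalized count of 16.0 and a log2 ratio of -0.05 according to the authors' deposited table, with an interval from -1.74 to 1.64. The implied means of CXCL2 were 16.3 in control and 15.8 in SOX9 siRNA libraries. CXCL3 had a mean count of 4.99 and a log2 ratio of -0.45 (interval -3.31 to 2.42) according to the authors' deposited table. The intervals of CXCL2 and CXCL3 contain both the value of CXCL1 and 0, so a fall of the size seen for CXCL1 was not detectable in them at this depth. CXCL1, CXCL2 and CXCL3 are close paralogs, and the sources used here do not say whether reads shared between them were split or dropped, so their values are uncertain in that respect.

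CXCL5 and CCL20 were as sparse. CXCL5, another ELR chemokine, had a mean normalized count of 5.83 and a log2 ratio of 0.81 according to the authors' deposited table, with an interval from -1.87 to 3.48. The log2 ratio of CCL20, the ligand of CCR6, was 0.55 at a mean count of 3.59 according to the authors' deposited table, with an interval from -2.84 to 3.95. Their positive values rest on 23.3 and 14.4 normalized reads over 4 libraries. Neither interval leaves out 0 or the value of CXCL1.

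LIF was the cytokine with enough reads to test. LIF is an IL-6 family cytokine that holds mouse embryonic stem cells undifferentiated and acts through LIFR and IL6ST. It had a mean normalized count of 2107 according to the authors' deposited table. Its implied means were 2313 in control and 1900 in SOX9 siRNA libraries. The log2 ratio of LIF was -0.28 with a standard error of 0.21 and a DESeq2 adjusted p of 0.706 according to the authors' deposited table. The interval ran from 61.3% to 110% of control, so a fall to under 61.3% lies outside it. LIF overlaps LIF-AS1 and LIF-AS2 in the RefSeq annotation, and the sources used here do not say whether counting used strand.

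IL6 and IL1A could not be compared. IL6, a cytokine that drives STAT3 signalling, had a mean normalized count of 1.23 and a log2 ratio of -0.51 according to the authors' deposited table, with an interval from -6.55 to 5.52. Its 4.93 normalized reads over 4 libraries would need a change of 1199-fold to reach the Wald statistic of 3.32 at which the least certain called gene stood. IL1A, an alarmin that activates NF-kB through the IL-1 receptor, had a mean count of 8.06 and a log2 ratio of -0.27 (interval -2.60 to 2.07) according to the authors' deposited table. For both genes the implied group means were within 2 normalized counts of each other. IL6 overlaps IL6-AS1 in the RefSeq annotation.

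The inhibitors had positive values, which did not pass the threshold. NFKBIA had a mean normalized count of 3935 according to the authors' deposited table, with implied means of 3270 in control and 4599 in SOX9 siRNA libraries. By the authors' deposited table its level was 1.41-fold that of control (interval 1.10 to 1.80), with a log2 ratio of 0.49, a standard error of 0.18, an unadjusted p of 0.00676 and a DESeq2 adjusted p of 0.165. The least rise of NFKBIA that could pass at its standard error was 1.52-fold. TNFAIP3, an enzyme that edits ubiquitin chains on signalling proteins, had a log2 ratio of 0.23 (SE 0.36) and an adjusted p of 0.915 at a mean count of 366.8 according to the authors' deposited table. The interval of TNFAIP3 ran from 0.724-fold to 1.90-fold, and the least rise that could pass was 2.27-fold. Its standard error was wider than the median of 0.275 among the 1530 genes with mean counts from 200 to 500, whereas that of CXCL1 was close to it. TNFAIP3 overlaps the noncoding gene WAKMAR2 in the RefSeq annotation.

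CXCL1 and NFKBIA, both with a strict NF-kB motif within 81 bases of their start, had intervals that do not overlap, -1.42 to -0.37 and 0.14 to 0.85 in log2 fold change from the authors' deposited table. Both were picked here because their intervals leave out 0 on opposite sides, so the lack of overlap follows from that choice. TNFAIP3, the other tested gene with a strict match, had an interval from -0.47 to 0.93, which overlaps both. The difference between CXCL1 and NFKBIA was not tested, since the errors of genes measured in the same libraries are not independent. NFKBIA stood at the 92.4th percentile of log2 fold changes among tested genes and CXCL1 at the 0.917th.

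**Figure D3:**
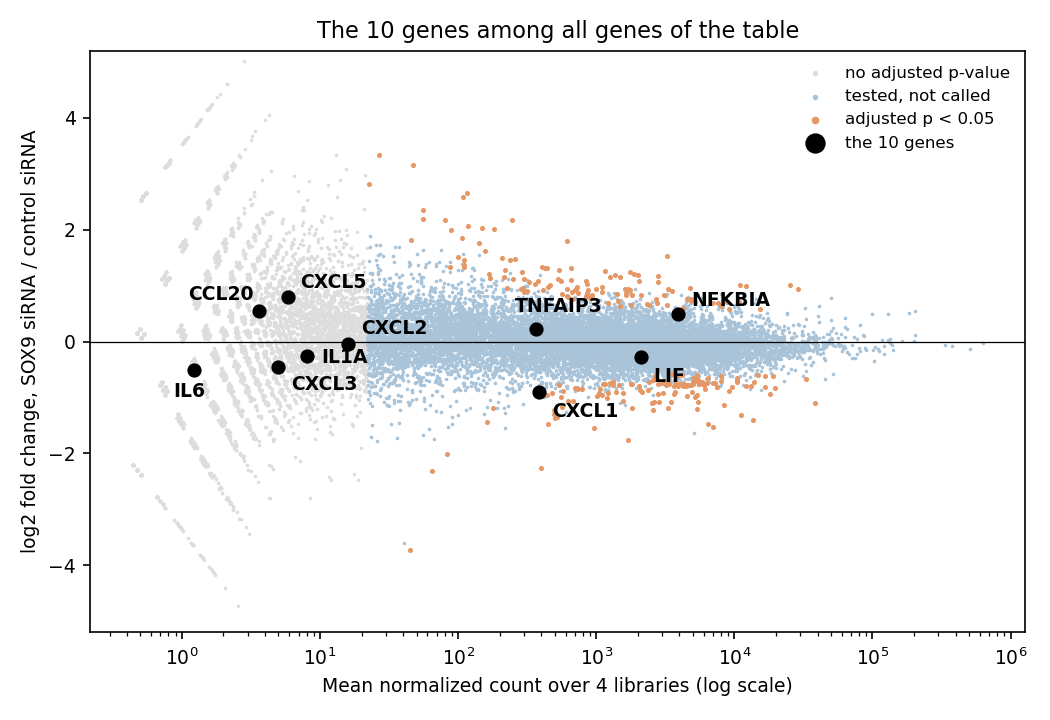
Log2 fold change against mean normalized count (log axis) for all 19830 genes. Black points are the 10 genes, grey points genes without an adjusted p-value, blue points tested genes and orange points called genes. LIF, NFKBIA and TNFAIP3 lie within the blue cloud, CXCL1 at its lower edge, and the 6 others at mean counts of 16.0 or less, where fold changes scatter widely.

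The other chemokines and their receptors held no call. Their lists had 5 or fewer tested genes, too few to set beside the 1.81% of all tested genes. Of the ELR chemokines outside the 10, CXCL8 (interleukin-8), a ligand of CXCR1 and CXCR2, had a mean normalized count of 39.9 and a log2 ratio of -0.69 (interval -1.78 to 0.39) with an adjusted p of 0.739 according to the authors' deposited table. CXCL6 and PF4V1 were not tested, and PF4V1, a CXC gene of the same list, lacks the ELR motif. CXCL6 and PF4V1 had log2 ratios of -0.44 and -0.02 at mean counts of 15.3 and 17.1 according to the authors' deposited table. Of 27 other chemokines 5 were tested and 0 called by the authors' DESeq2 test, with 1 unadjusted p under 0.05. The most abundant was CCL2, a monocyte attractant and NF-kB target, with a log2 ratio of 0.83 (interval 0.10 to 1.56) and an adjusted p of 0.328 at a mean count of 4138 according to the authors' deposited table. Of 21 chemokine receptors 2 were tested and neither was called, with 0 at an unadjusted p under 0.05. CCR10, the more abundant of them, had a log2 ratio of 0.48 and an adjusted p of 0.819 according to the authors' deposited table.

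Within the chromosomal cluster of CXC genes, the fall of CXCL1 was not accompanied by a call of a neighbour. In RefSeq gene order the nearest tested genes before the stretch from CXCL1 to CXCL2 were ANKRD17, RASSF6 and CXCL8, the last itself a CXC gene. Those after the stretch were MTHFD2L, EREG and AREG. ANKRD17 had a log2 ratio of -0.20, RASSF6 0.35, MTHFD2L 0.05 and EREG 0.08 according to the authors' deposited table, and their adjusted p-values ran from 0.800 to 0.984. AREG, an EGF receptor ligand, had the lowest value, a log2 ratio of -1.79 (interval -3.24 to -0.34) with an adjusted p of 0.258 at a mean count of 25.7 according to the authors' deposited table. EREG, a related ligand with a mean count of 834.1 according to the authors' deposited table, had an interval from -0.49 to 0.65.

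**Figure D4:**
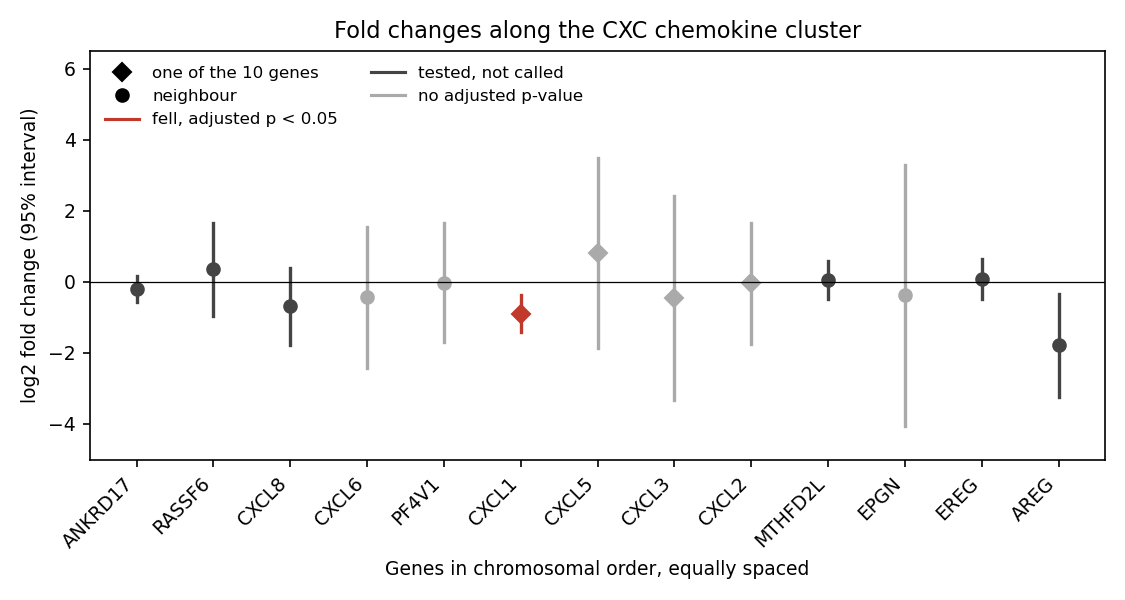
Log2 fold changes with 95% Wald intervals for the genes of the CXC cluster and its neighbours, in chromosomal order at equal spacing. Diamonds are genes among the 10, circles neighbours, red a called fall, dark grey tested genes and light grey genes without an adjusted p-value. CXCL1 is the called gene, at -0.89, and CXCL5, CXCL3 and CXCL2 have intervals that cross 0.

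The rest of the pathway was described with 18 lists by role, of 346 genes, of which 299 were matched to the table and 223 were tested. Of these 223 genes 1 rose and 0 fell by the authors' DESeq2 test, which is 0.448% called beside 1.81% of all tested genes. An unadjusted p under 0.05 was found for 11 higher and 12 lower, together 10.3% beside 11.1% of all tested genes, which split into 4.98% higher and 6.15% lower. The median log2 ratio of the 223 was 0.05. Single lists had at most 26 tested genes, too few for 0 calls in a list to be set beside that 1.81%.

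The gene that rose was TNFRSF1B, which encodes TNF receptor 2, a receptor that activates NF-kB. It was 2.12-fold that of control (interval 1.37 to 3.26), with a log2 ratio of 1.08, a standard error of 0.32 and a DESeq2 adjusted p of 0.0429 at a mean count of 2032 according to the authors' deposited table. The call of TNFRSF1B was lost with adjustment over every gene of the table (adjusted p 0.0603) and in the test against a 1.5-fold change (1.00). TNFRSF1B was 1 of 19 tested TNF family ligands and receptors, whose median was 0.13. TNFRSF21, a death receptor and the most abundant of the list not called, had a log2 ratio of -0.40 and an adjusted p of 0.709 according to the authors' deposited table.

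The lists of IL-1 family genes, of Toll-like receptors and RNA sensors, and of adaptors and kinases upstream of IKK held no call. IL-1 family ligands and receptors had 0 calls among 9 tested and 0 unadjusted p-values under 0.05, and SIGIRR, an inhibitory receptor, had a log2 ratio of 0.40 (adjusted p 0.727) according to the authors' deposited table. Toll-like receptors and RNA sensors had 0 calls among 10 and 1 unadjusted p under 0.05, and MAVS, the adaptor of RNA sensors, had a log2 ratio of 0.10 (adjusted p 0.923) according to the authors' deposited table. Adaptors and kinases upstream of IKK had 0 calls among 26, a median of -0.04 and 2 unadjusted p-values under 0.05. The most abundant of them, IRAK1, a kinase of the IL-1 and Toll-like receptor pathway, had a log2 ratio of -0.07 (adjusted p 0.959) according to the authors' deposited table.

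The IKK kinases and the NF-kB subunits held no call. With 7 and 5 tested genes, these counts are too small to set beside the 1.81% of all tested genes. The IKK subunits CHUK, IKBKB and IKBKG had log2 ratios of 0.17, 0.12 and 0.16 according to the authors' deposited table, with standard errors from 0.18 to 0.22. Among related kinases and their scaffolds, TBK1 was at 0.02, IKBKE at 0.34, TANK at 0.42 and AZI2 at -0.20 according to the authors' deposited table, and the smallest adjusted p of the list was 0.311, for TANK. IKBKE had the largest standard error of these 7 genes, 0.33, and an interval from -0.31 to 0.99 by the authors' deposited table. Of the subunits, RELA, which carries the main activation domain, had a log2 ratio of -0.03 (SE 0.16) and NFKB1 of -0.02 (SE 0.20) according to the authors' deposited table. REL was at 0.15 (SE 0.25) and RELB at 0.08 (SE 0.27) according to the authors' deposited table. The errors of REL and RELB, and that of 0.27 for NFKB2, are above the median of 0.215 over all tested genes in the authors' deposited table. Those of RELA and NFKB1 are below it. NFKB2, itself an NF-kB target, had the highest value of the 5, a log2 ratio of 0.56 (interval 0.03 to 1.09) with an unadjusted p of 0.0390 and an adjusted p of 0.401 according to the authors' deposited table.

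Further inhibitors and targets showed no call on either side. Other IkB family proteins had 0 calls among 8 and 0 unadjusted p-values under 0.05, with a median of 0.00, and NFKBIB (IkB-beta) had a log2 ratio of -0.31 (adjusted p 0.676) according to the authors' deposited table. Ubiquitin and RNA-binding feedback proteins had 0 calls among 14, a median of 0.02 and 1 unadjusted p under 0.05, and TAX1BP1, a partner of TNFAIP3, had a log2 ratio of 0.12 (adjusted p 0.895) according to the authors' deposited table. Other NF-kB target genes had 0 calls among 22 tested of 45 listed, a median of 0.05, and 14 positive and 8 negative values. They had 1 unadjusted p under 0.05, on the lower side, for GADD45B. Chosen after its value was seen, GADD45B had a log2 ratio of -0.82 (interval -1.34 to -0.31, adjusted p 0.0786) according to the authors' deposited table. TNFAIP2, the most abundant of these target genes, had a log2 ratio of 0.04 (adjusted p 0.981) according to the authors' deposited table.

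**Figure D5:**
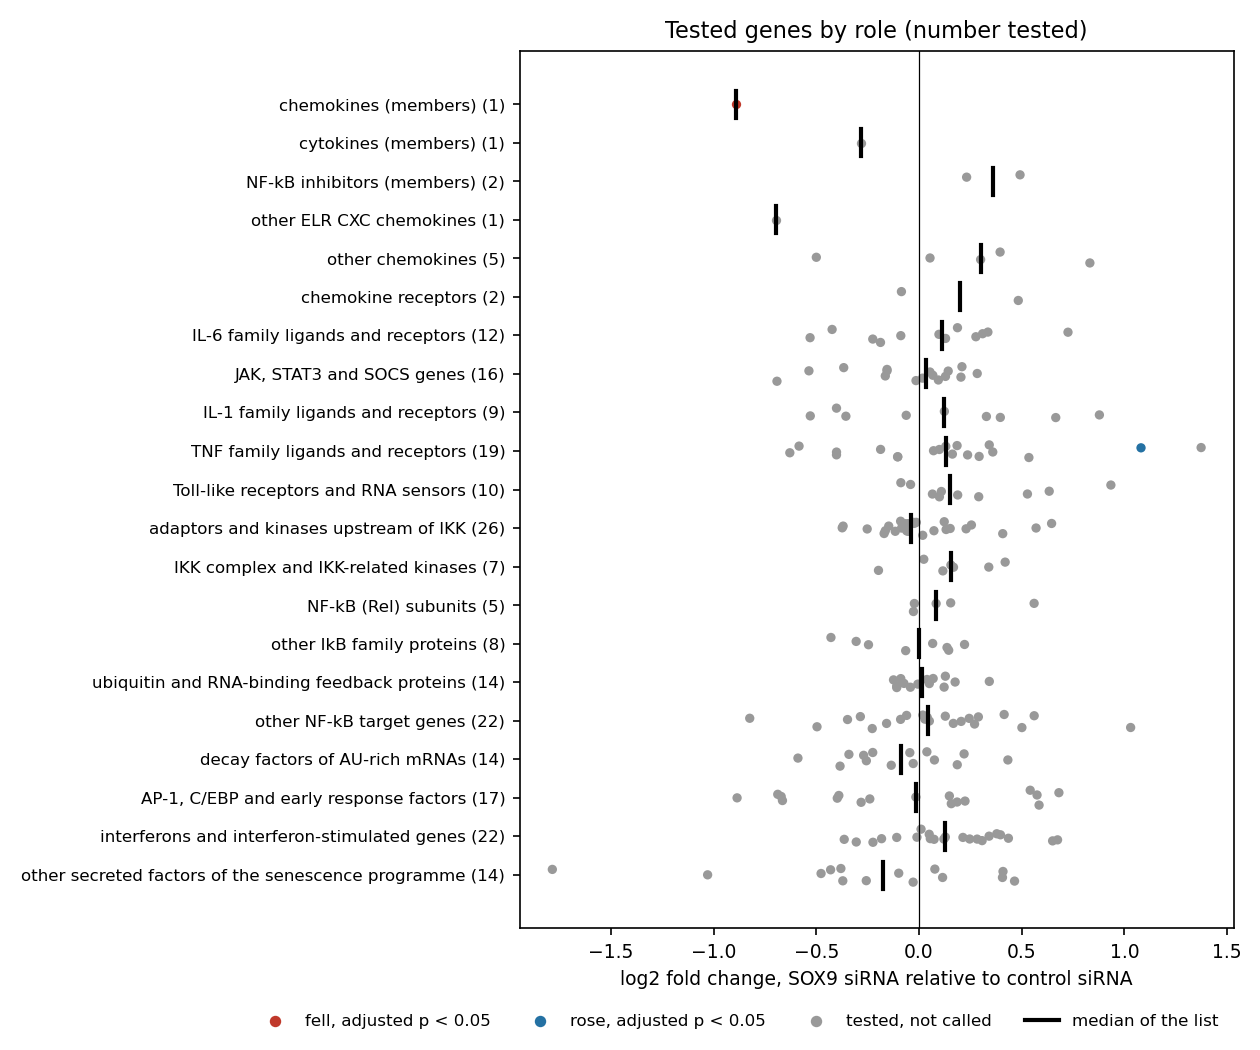
Log2 fold changes of the tested genes by role, with the number tested beside each name. Each point is a gene, vertical bars are list medians, red marks the called fall of CXCL1 and blue the called rise of TNFRSF1B. The medians of the 18 lists outside the 10 genes lie between -0.69, for the single tested ELR chemokine CXCL8, and 0.30.

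Downstream of IL6 and LIF, receptors and kinases held no call. The IL-6 family list had 0 calls among 12 tested, a median of 0.11 and 2 unadjusted p-values under 0.05, and IL6ST, the shared receptor subunit of IL6 and LIF, had a log2 ratio of -0.19 (adjusted p 0.807) according to the authors' deposited table. JAK, STAT3 and SOCS genes had 0 calls among 16, a median of 0.04 and 1 unadjusted p under 0.05. STAT3, the main factor activated by IL6 and LIF, had a log2 ratio of 0.07 with a standard error of 0.18 according to the authors' deposited table. JAK1, a kinase bound to IL6ST that was chosen after its value was seen, stood at a log2 ratio of -0.69 (interval -1.12 to -0.26) and an adjusted p of 0.0771 according to the authors' deposited table.

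Factors that act beside NF-kB on these promoters and messages were also not called. AP-1, C/EBP and early response factors had 0 calls among 17, a median of -0.02 and 4 unadjusted p-values under 0.05, all 4 lower, beside 6.15% lower at that p among all tested genes. The list is small, and that count was not tested. CEBPG, the most abundant of them, had a log2 ratio of -0.24 (adjusted p 0.841) according to the authors' deposited table. FOSL1, an AP-1 subunit chosen after its value was seen, stood at a log2 ratio of -0.69 and an adjusted p of 0.0643 according to the authors' deposited table. Decay factors of AU-rich messages, the class of short-lived mRNAs that includes those of chemokines and cytokines, had 0 calls among 14 and a median of -0.09. They had 2 unadjusted p-values under 0.05, both lower, in a list too small to set that count beside the 11.1% of all tested genes. CNOT1, the scaffold of the deadenylase complex, had a log2 ratio of -0.04 (adjusted p 0.977) according to the authors' deposited table. CNOT7, of the same complex and chosen after its value was seen, stood at a log2 ratio of -0.59 (interval -0.98 to -0.20). Its adjusted p was 0.106 according to the authors' deposited table.

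The cell type label was checked with markers. The keratins KRT8 and KRT18 had mean normalized counts of 203350 and 130452 according to the authors' deposited table, the highest of the epithelial list, while the duct gene CFTR was near 0, at 1.83. EPCAM, an epithelial adhesion molecule, fell, with a log2 ratio of -1.76 and an adjusted p of 1.85e-05 according to the authors' deposited table. KRT8 had a log2 ratio of 0.55 (adjusted p 0.0786) and KRT18 0.50 (0.106) according to the authors' deposited table. Chemokines and cytokines are also made by leukocytes, fibroblasts and endothelial cells. Of 14 leukocyte markers 3 were tested and 0 called, with 1 unadjusted p under 0.05, and the defining marker PTPRC (CD45) had a mean count of 2.28 according to the authors' deposited table. ITGAM and CD14, the most abundant, had log2 ratios of 0.91 and 1.21 at mean counts of 105.4 and 52.2 according to the authors' deposited table. Of 11 fibroblast and stellate markers 5 were tested, and COL1A1 rose, with a log2 ratio of 0.98, a mean count of 448.8 and an adjusted p of 0.0445 according to the authors' deposited table, a call lost with adjustment over all genes (0.0625). COL3A1 was at -0.31, and COL1A2 and DCN had mean counts of 1.52 and 4.37 according to the authors' deposited table. None of 8 endothelial markers was tested, and the most abundant, ERG and CLDN5, had mean counts of 7.56 and 4.21 according to the authors' deposited table. The summed mean counts of the 3 lists were 227.1, 1041 and 22.0, and their part in the value of CXCL1 was not tested.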

How the data were processed

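RNA of 4 PANC-1 libraries, 2 with SOX9 siRNA and 2 with control siRNA, was compared. Per the submitters' processing notes, HISAT2 2.0.5, featureCounts and DESeq2 1.18.1 were used, without settings, and hg19 and mm10 are listed without a role. The file holds the authors' comparison and no value per library, so the branch of the design without counts was used. Per the file headers, the authors' table gives a mean of size-factor-scaled counts (a signal), log2 fold changes with standard errors as log2 values, a Wald score, and p-values with their adjusted values, all used as deposited. These means add up to 47653185, and no depth per library is analysed here.

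The 10 genes and the 25 lists were chosen with earlier results of these data known. Calls are across all genes at an adjusted p under 0.05. Intervals are 1.96 standard errors each way. The implied control mean is the mean count times 2, divided by 1 plus the fold. All 10 genes and SOX9 were named. So were, in each pathway list, up to 4 called genes of smallest p and the most abundant tested gene not called. Every tested IKK list, Rel subunit and other ELR chemokine gene was named, as were the 2 most abundant genes of each marker list. The last were 3 tested neighbours on each side of the stretch from CXCL1 to CXCL2. List genes were matched by symbol, and 47 of the 346 pathway genes had no match. Other genes (CXCL6, PF4V1, CFTR, PTPRC, EPCAM, COL1A2, DCN, JAK1, FOSL1, GADD45B, CNOT7, DDX60) were named after their values were seen, or for being defining markers. Some list genes are not reported here by name. Promoter sequences and gene order come from RefSeq, GRCh38.p14, which supplied no coordinate for the expression values. The planned protein comparison was not run. Alternatives were other thresholds, adjustment over all genes or over mean counts of at least 100, centring, and a test against 1.5-fold. Steps were tested on simulated data. Python 3.11.15, pandas 2.3.3 and scipy 1.17.1 were used.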

Additional observations from a re-analysis of the deposited data

How the results depend on the processing

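Of the 10 genes 1 was called at an adjusted p under 0.1 and with adjustment over genes with mean counts of at least 100. The count was 0 at an adjusted p under 0.01, with adjustment over all genes, after centring and in the test against a 1.5-fold change. The adjusted p of CXCL1 ranged from 0.0419 to 1.00 over these settings, that of NFKBIA from 0.147 to 1.00. These settings reuse the deposited log2 fold changes, apart from centring, which shifts every gene alike, so they bear on calls and not on directions. The median of the tested genes among the 10 moved from -0.03 to -0.16 at most, over all 10, a setting added after the data were seen. In the pathway lists the count of rises, TNFRSF1B, fell to 0 with adjustment over all genes, and 3 genes fell at an adjusted p under 0.1, FOSL1, JAK1 and GADD45B, which were named after their values were seen. Over the whole table the calls numbered 109 at an adjusted p under 0.01 and 3 in the test against 1.5-fold, beside 254. No paired analysis was possible because the table holds no values per library, and for the same reason no library could be left out and no other count test was run. Depth limits 6 of the 10 genes, which have 64.2 or fewer normalized reads over 4 libraries.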

Other observations

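Genes of the interferon response, which cells can also raise against transfected RNA, held 0 calls among 22 tested by the authors' DESeq2 test. Both groups received siRNA with Lipofectamine, so a response that both shared would not appear in this comparison. The list had 16 positive and 6 negative values, a split that was not tested. Its median log2 ratio was 0.12, beside -0.02 for all tested genes. It had 1 unadjusted p under 0.05, a count too small to set beside the 11.1% of all tested genes. IFITM3, a membrane protein that blocks virus entry and the most abundant of the interferon list, had a log2 ratio of 0.01 (SE 0.27). Its DESeq2 adjusted p was 0.997 according to the authors' deposited table. The RNA helicase DDX60, named after its value was seen, had the smallest adjusted p of this list according to the authors' deposited table, 0.242, with a log2 ratio of 0.67.

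Other secreted factors of the senescence programme held 0 calls among 14 tested, with 5 positive and 9 negative values, a median log2 ratio of -0.18 and 2 unadjusted p-values under 0.05, a count too small to set beside the 11.1% of all tested genes. AREG had the lowest value of the list, given with the neighbours of the chemokine cluster.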
